A study of Mus musculus with 8 samples.

Results

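Schwann cells and sustentacular cells are the glia of the adrenal medulla, and 8 genes that mark them are described here: Sox10, Erbb3, Cdh19, S100b, Fabp7, Gfap, Mbp and Pmp22. They were chosen by gene symbol in the annotation of the array, where they are 8 of 22485 symbols and 13 of 33026 named spots, and all 13 spots had enough values to be tested. RNA of adrenal medulla from SDHD-ESR mice (SdhD flox/- with Cre-ER, a Cre recombinase that tamoxifen activates) and from +/- littermates (SdhD flox/- without Cre) was hybridized on 8 Agilent mouse arrays, 4 for each genotype. Each array held Cy5-labelled RNA of 2 male mice, 8 mice per genotype, beside the same Cy3-labelled pool of 8 +/+ mice (SdhD flox/+ without Cre), and no dyes were swapped. All mice were of the 129/SvJ strain, had received tamoxifen at 100 µg/g on each of 4 days from the age of 9 weeks, and were 10 weeks old when the tissue was taken, 1 week after the first injection. The medulla was separated from the cortex by surgery, so it can hold other cells of the gland and its surroundings, and the sources used here do not limit Cre-ER to 1 cell type. The SdhD alleles and the tamoxifen were shared by both genotypes, and +/- mice lack Cre, so a difference between them covers the loss of SdhD and the presence of active Cre together.

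Both kinds of glia descend from the neural crest. Schwann cells ensheathe the nerve fibres that enter the medulla, some with myelin and some without, while sustentacular cells wrap the chromaffin cells, which make catecholamines, and are classically recognised by S100 protein. SOX10 is the transcription factor that specifies and maintains this lineage, and ERBB3 is the receptor through which neuregulin from axons keeps Schwann cells and their precursors alive.

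Every value below is a log2 ratio of a sample to the +/+ pool, with positive values for more RNA than in the pool. The deposited ratios had the opposite sign, and the direction was set by Sdhd, the deleted gene, at -5.33 ± 0.60 in SDHD-ESR and -1.09 ± 0.84 in +/- (SD, n = 4 each). The ratios were not normalized: on each array, 27.1% to 32.1% of them equal the base-2 logarithm of a ratio of 2 small whole numbers, against at most 0.117% when read as natural or base-10 logarithms. Such a spot is called dim here, since the whole numbers are then few units of intensity unless the fraction was reduced. Among all tested probes the median SD within a group was 0.323 for probes dim on no array and 1.01 for those dim on 4 or more. Of the 13 glial spots, 4 were dim on no array, 7 on 1 to 3 arrays and 2 on 4 or more. On the array of SDHD-ESR replicate 1, some lines of spots were displaced by 1 line, so of the glial spots 5 are aligned there (S100b, Fabp7, Cdh19, 1 of Gfap and 1 of Mbp), 1 lies in a mixed stretch (Erbb3) and 7 lie in the shifted part, where the value on this array belongs to a neighbouring spot. Values of these genes are therefore given with and without that array. Only ratios were used, so the level of a glial gene cannot be set against that of another, and in bulk tissue fewer glial cells and less RNA per cell cannot be told apart.

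None of the 8 glial genes passed the tests for a difference between SDHD-ESR and +/-. Of the 13 spots, 0 passed an adjusted p of 0.05 in limma, where the share of all 28073 probes that passed was 0.0%, and 0 had an unadjusted p of 0.05 or less, against 4.61% of all probes. The adjusted p of every glial spot was 0.953 or above. The unadjusted count holds for the main fit of the ratios as deposited. With complete probes only, S100b had a limma p of 0.0497 (adjusted p = 0.949), and 1056 of 22801 probes passed the unadjusted threshold. With the replicate block, Fabp7 had a limma p of 0.0396 (adjusted p = 0.944), and 1361 of 28073 probes passed. After centring, S100b had an unadjusted p of 0.0307 and an adjusted p of 0.836 in limma (exact permutation p = 0.0857), and 5.95% of all probes passed the unadjusted threshold. After quantile normalization the limma values of S100b were 0.0233 and 0.750 (exact permutation p = 0.0857), and 6.57% of all probes passed. By gene, the SDHD-ESR and +/- values overlapped in 8 of 8, while 2.73% of the 19322 genes tested had groups that did not overlap. The difference was below 0 in 6 of the 8 genes (57.4% of all genes), with a median of -0.25 over the 8 against -0.05 over all genes. These medians keep a general shift of the arrays. After each array was centred on its median, the glial median was -0.19 and 5 of 8 genes were below 0. Without SDHD-ESR replicate 1, the uncentred glial median was -0.15 and 5 of 8 genes were below 0. With 4 arrays against 4, the exact permutation test cannot give a two-sided p under 0.0286, and with 3 against 4 it cannot go under 0.0571.

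**Figure D1:**
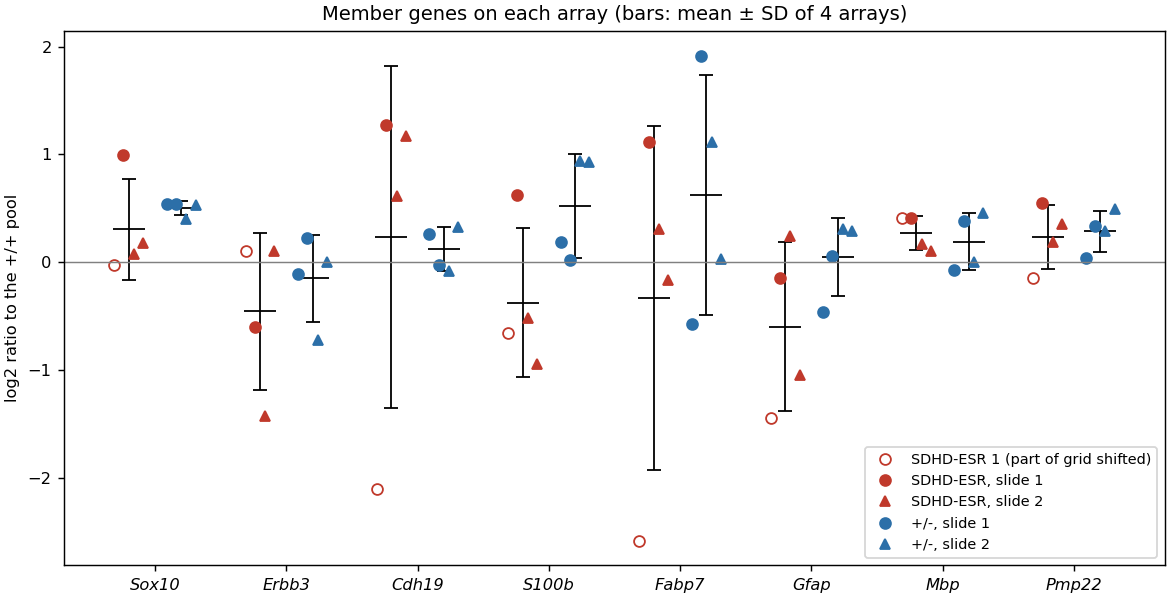
Log2 ratio to the +/+ pool (vertical axis) of the 8 glial genes on each array, SDHD-ESR in red and +/- in blue, circles for slide 1 and triangles for slide 2, open circles for SDHD-ESR replicate 1, and bars for the mean ± SD of 4 arrays. The 2 genotypes overlap for every gene, and the open circles of Cdh19 (-2.10) and Fabp7 (-2.58) lie far below the other arrays.

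Sox10 (NM_011437) had log2 ratios of -0.02, 0.99, 0.08 and 0.18 on SDHD-ESR replicates 1 to 4, against 0.54, 0.54, 0.40 and 0.53 on +/- replicates 1 to 4. As deposited, the +/- arrays were tightly grouped above the pool. In SDHD-ESR, 3 arrays lay below all +/- arrays and 1 lay above them. The named-spot medians of +/- replicates 1 to 4 were -0.20, -0.06, 0.23 and 0.36, so centring on them spreads the +/- values apart. The difference was -0.20 ± 0.24 (SE), with an exact permutation p of 0.486. Its spot is in the shifted part, and without SDHD-ESR replicate 1 the difference was -0.09. Leaving out SDHD-ESR replicate 2 gave -0.43, and the groups separated as deposited (exact permutation p = 0.0571, the smallest that 3 against 4 can give, and adjusted p = 0.568 in limma). They overlapped after centring, where the difference over all arrays was -0.14 (exact permutation p = 0.657). With the displacement by 1 line undone, Sox10 read 0.18 on SDHD-ESR replicate 1, and its uncentred difference was -0.15.

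Erbb3 (NM_010153) gave 0.11, -0.60, -1.42 and 0.10 in SDHD-ESR and -0.11, 0.23, -0.72 and 0.01 in +/-. Replicate 3 was the lowest array of both genotypes. The difference was -0.30 ± 0.42 (SE, exact permutation p = 0.6), and it was -0.30 on slide 1 and -0.31 on slide 2, but -0.51 and 0.02 after centring. Leaving out SDHD-ESR replicate 1 gave -0.49, and leaving out replicate 3 of the same genotype gave 0.02. The spot was dim on 3 arrays.

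Cdh19 (NM_001081386) encodes a cadherin of the Schwann cell lineage. It gave -2.10, 1.27, 0.61 and 1.17 in SDHD-ESR, against 0.26, -0.03, -0.08 and 0.33 in +/-. Here 3 SDHD-ESR arrays lay above all +/- arrays and the remaining one, replicate 1, far below them, although its spot is aligned. The difference was therefore 0.12 ± 0.80 (SE, exact permutation p = 0.943) over all arrays and 0.89 without replicate 1 (exact permutation p = 0.0571, the smallest that 3 against 4 can give). Without SDHD-ESR replicate 2, 3 or 4 instead, the difference was -0.23, -0.01 and -0.19. It was -0.53 on slide 1, which holds replicate 1, and 0.76 on slide 2. The spot was dim on 5 of 8 arrays, and on SDHD-ESR replicate 1 its ratio equals that of 7 to 30.

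S100b (NM_009115), the calcium-binding protein by which sustentacular cells are recognised, came closest to a difference. Its log2 ratios were -0.65, 0.62, -0.52 and -0.94 in SDHD-ESR and 0.19, 0.02, 0.94 and 0.93 in +/-. The +/- arrays were all above the pool, and 3 of 4 SDHD-ESR arrays were below it and below every +/- array, with SDHD-ESR replicate 2 as the exception. The mean was -0.37 ± 0.69 in SDHD-ESR and 0.52 ± 0.48 in +/- (SD, n = 4 each), which is 0.538 times the +/- level. The difference of -0.89 ± 0.42 (SE) had an exact permutation p of 0.0857 and a limma p of 0.0523, adjusted to 0.953. The spot is aligned and was dim on no array, and the difference was -0.80 without SDHD-ESR replicate 1. Leaving out SDHD-ESR replicate 2 gave -1.23, and the groups separated (exact permutation p = 0.0571, the smallest possible, and adjusted p = 0.507 in limma).

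The slides disagreed on the size of the S100b difference. Each of the 2 slides held 2 arrays of each genotype, replicates 1 and 2 on the first and 3 and 4 on the second. S100b differed by -0.12 on slide 1 and by -1.67 on slide 2, and by -0.33 and -1.34 after centring. Adipocytes also make S100b, and 14 adipose genes were read beside it: their median was 0.31, -0.03, -2.28 and -1.43 in SDHD-ESR and 0.98, -1.75, 0.49 and 1.00 in +/-. The adipose median differed by 0.36 on slide 1 and by -2.51 on slide 2, so it was lower in SDHD-ESR on slide 2 only. S100b was lower in SDHD-ESR on both slides, and more so on slide 2. On slide 1, +/- replicate 2 had the lowest value of its group for S100b and for the adipose median. SDHD-ESR replicate 1 had an adipose median above the pool with S100b below it. SDHD-ESR replicate 2 had an adipose median of -0.03 with S100b at 0.62. Sox10, which adipocytes are not known for, differed by -0.06 and -0.34 on the 2 slides, and by -0.26 and -0.02 after centring. The part of adipose RNA in the S100b values was not tested.

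**Figure D2:**
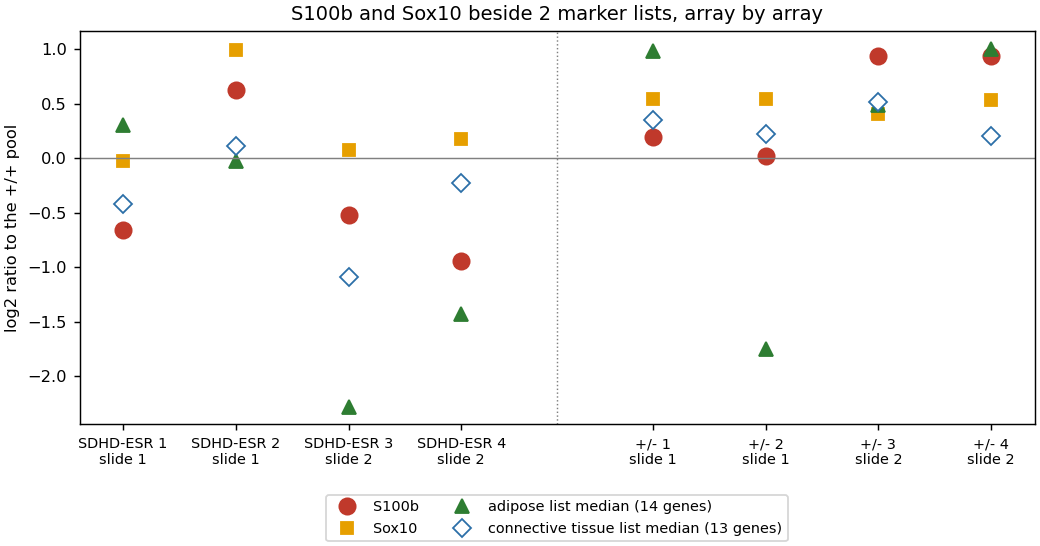
Log2 ratio to the +/+ pool (vertical axis) on each array, the 4 SDHD-ESR arrays left and the 4 +/- arrays right, for S100b, Sox10 and the medians of 14 adipose and 13 connective tissue genes. On slide 2, S100b and the adipose median are both below the pool on SDHD-ESR replicates 3 and 4 (S100b at -0.52 and -0.94). Both are above it on +/- replicates 3 and 4 (S100b at 0.94 and 0.93). On slide 1 their signs differ on SDHD-ESR replicates 1 and 2 and on +/- replicate 2, and agree on +/- replicate 1.

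Fabp7 (NM_021272), the brain-type fatty acid-binding protein of immature glia and of satellite cells, had the largest difference by size of the 8 genes and the widest spread. It gave -2.58, 1.12, 0.31 and -0.17 in SDHD-ESR and -0.57, 1.92, 1.12 and 0.03 in +/-. In both genotypes replicate 1 was lowest and replicate 2 highest. The difference was -0.95 ± 0.97 (SE, exact permutation p = 0.4), -1.40 on slide 1 and -0.50 on slide 2. It was -0.20 without SDHD-ESR replicate 1 and -1.35 without +/- replicate 1, the lowest array of each genotype. The spot is aligned and was dim on no array.

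The proximal promoters of S100b and Fabp7 are shown because these genes had the 2 largest differences by size. The RefSeq table of GRCm38.p6 promoters holds 4 of the 8 genes (S100b, Fabp7, Gfap and Pmp22, the last with 4 start sites), each as 250 bases before and 50 after a start site. Sox10, Erbb3, Cdh19 and Mbp are named only. The letters ACAANG, a loose form of the core that SOX factors recognise, were searched on both strands (CNTTGT on the other). Any base was allowed at N, and matches stand in capitals. S100b lies at chr10:76253586-76253885 and Fabp7 at chr10:57784673-57784972, both on the plus strand.
S100b: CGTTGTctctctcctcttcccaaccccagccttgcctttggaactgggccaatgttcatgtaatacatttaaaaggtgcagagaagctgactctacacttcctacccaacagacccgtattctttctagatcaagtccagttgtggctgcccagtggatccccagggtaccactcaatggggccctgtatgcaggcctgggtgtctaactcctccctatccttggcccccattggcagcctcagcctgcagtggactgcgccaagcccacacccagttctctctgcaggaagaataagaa
Fabp7: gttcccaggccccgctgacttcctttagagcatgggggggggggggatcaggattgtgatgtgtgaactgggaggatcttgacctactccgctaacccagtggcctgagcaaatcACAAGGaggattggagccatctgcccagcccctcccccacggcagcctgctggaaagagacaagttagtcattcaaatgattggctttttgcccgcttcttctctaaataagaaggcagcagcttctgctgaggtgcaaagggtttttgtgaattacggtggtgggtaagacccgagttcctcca
Each of the 2 windows holds 1 match, at its first base for S100b and starting 135 bases before the start site for Fabp7, while the Gfap window and the 4 Pmp22 windows hold 0. Of all 32851 promoter windows of this length, 41.2% hold at least 1 match. SOX factors favour A or T at N, whereas N is C in the S100b match (read on the other strand) and G in the Fabp7 match. A match describes the letters and says nothing of binding.

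Gfap encodes the intermediate filament of astrocytes, which non-myelinating Schwann cells and some sustentacular cells also carry. As the median of its 3 spots, Gfap gave -1.45, -0.15, 0.25 and -1.04 in SDHD-ESR and -0.46, 0.06, 0.31 and 0.30 in +/-. SDHD-ESR replicates 1 and 4 were low and the other 2 lay within the +/- range. The difference was -0.65 ± 0.43 (SE, exact permutation p = 0.2), -0.59 on slide 1 and -0.70 on slide 2, and -0.36 without SDHD-ESR replicate 1. The 3 spots disagreed. The spot of NM_010277, dim on 1 array, differed by 0.11 ± 0.25 (SE from limma), while those of NM_001131020, dim on 3 and 6 arrays, differed by -1.30 ± 1.15 and -0.93 ± 0.74. The lower Gfap median thus came from the dim spots, of which the first has no ratio on SDHD-ESR replicate 1. Its ratio of -4.23 on SDHD-ESR replicate 3 does not set the median there (0.25). Only the last of the 3 spots is aligned on SDHD-ESR replicate 1. With the shifted lines of that array moved back, the Gfap difference was -0.22 (exact permutation p = 0.571).

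Mbp and Pmp22 encode proteins of the compact myelin of Schwann cells. Mbp, as the median of 3 spots, gave 0.41, 0.41, 0.17 and 0.11 in SDHD-ESR and -0.07, 0.38, 0.00 and 0.46 in +/-. Pmp22, as the median of 2 spots, gave -0.15, 0.55, 0.19 and 0.36 in SDHD-ESR and 0.04, 0.34, 0.29 and 0.49 in +/-. For both genes the SDHD-ESR and +/- values ran over nearly the same range, mostly a little above the pool. The Mbp difference was 0.08 ± 0.15 (SE, exact permutation p = 0.6) and the Pmp22 difference -0.05 ± 0.18 (SE, exact permutation p = 0.8), the smallest SEs of the 8 genes. Without SDHD-ESR replicate 1 they were 0.04 and 0.08. The Mbp spots differed by -0.04, 0.01 and -0.26 and the Pmp22 spots by 0.07 and -0.17, each by less than its SE from limma. The sign of both genes turned with the choice of spots, arrays or scaling, including centring for Pmp22 (0.01).

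**Figure D3:**
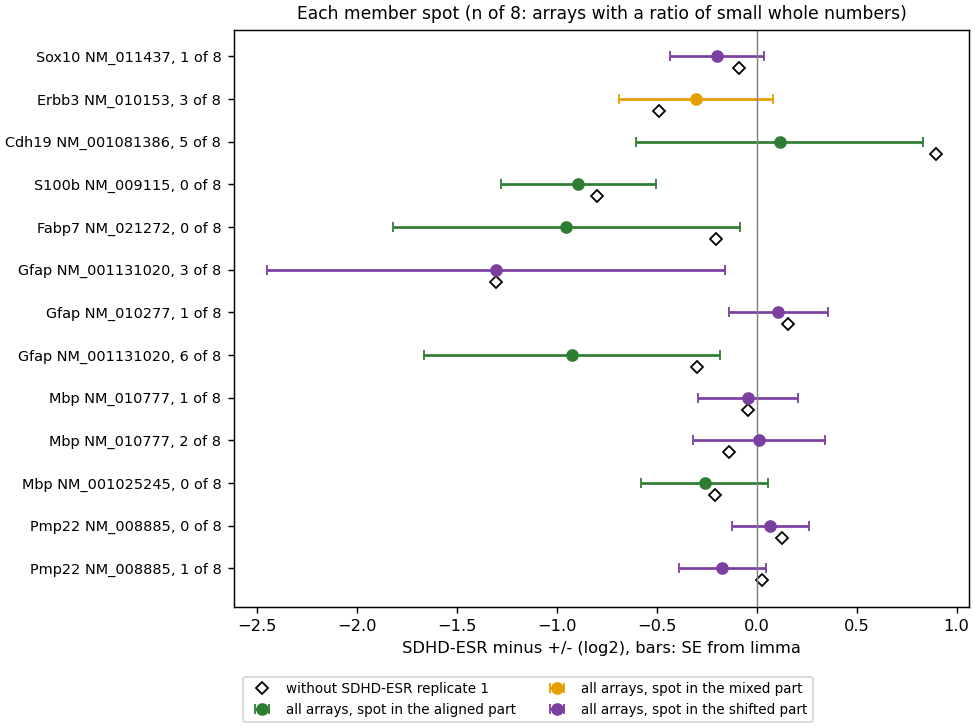
Difference SDHD-ESR minus +/- on the log2 scale (horizontal axis) for each of the 13 glial spots, with bars for the SE from limma, colours for the position of the spot on SDHD-ESR replicate 1, and open diamonds for the difference without that array. The number after each accession counts the arrays on which the spot was dim, and the 2 spots dim on 4 or more arrays, of Cdh19 (5) and Gfap (6), move by more than 0.5 when replicate 1 is left out, as does Fabp7.

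Against the +/+ pool, no glial spot passed the adjusted test. In limma 0 of 13 glial spots passed an adjusted p of 0.05 in SDHD-ESR (0.0427% of all probes did) and 0 in +/- (0.0% of all probes). At an unadjusted p of 0.05, 1 glial spot passed in SDHD-ESR, against 17.4% of all probes, and 3 passed in +/-, against 19.0%, all of them above the pool (10.3% and 13.2% of all probes in that direction). These were Pmp22 in both genotypes, and Sox10 and the Mbp spot of NM_001025245 in +/- (adjusted p of 0.187 and 0.166 in limma). Over all ratios, the medians of +/- replicates 1 to 4 were -0.24, -0.10, 0.19 and 0.32. Their part in the calls of the 3 spots in +/- was not tested. The +/- Sox10 mean of 0.51 ± 0.07 (SD, n = 4) is 1.42 times the pool, but dye and genotype cannot be told apart in such a ratio, and the pool is 1 sample.

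The median of the 8 genes on each array was -0.40, 0.59, 0.18 and 0.11 in SDHD-ESR and -0.02, 0.28, 0.30 and 0.40 in +/-. SDHD-ESR replicates 1 and 2 were the extremes and enclosed all other arrays. Over the 7 arrays without SDHD-ESR replicate 1, and after centring, 18 of the 28 pairs of glial genes had a Pearson r above 0, with a median of 0.25. The highest was 0.85 between Mbp and Pmp22, both of compact myelin, and the lowest -0.61 between S100b and Cdh19. These points share arrays and the pool, and pairs of other genes were not compared. Over the same 7 arrays, 93 of 17192 genes followed the median of the glial genes with r above 0.9. The median r over the 17192 genes was 0.09. The 5 genes closest to the glial median were Rit1 (0.987), Anp32a (0.980), Prelid1 (0.974), Cpa5 (0.966) and Dnm1l (0.965). None of them is a member of the glial lists.

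The other glial lists were myelin, non-myelinating Schwann cell, and sustentacular and satellite genes, 42 genes in all, of which 26 were lower and 16 higher in SDHD-ESR, and 0 of 78 spots passed an adjusted p of 0.05 in limma. Of 13 myelin genes 5 were lower, with a median of 0.04, or 0.12 when SDHD-ESR replicate 1 was left out. Gldn, a protein of the node of Ranvier, differed by -1.10 ± 0.95 (SE), which came from SDHD-ESR replicate 4 (-3.12), since it was -0.18 without that array and -1.48 when SDHD-ESR replicate 1 was left out. Ncmap, a myelin-associated protein of peripheral nerve, differed by 0.56 ± 0.37 (SE) and by 0.42 without SDHD-ESR replicate 1. Of 15 genes of non-myelinating and immature Schwann cells 10 were lower (median -0.07), and Ngfr, the low-affinity neurotrophin receptor, differed by -0.31 ± 0.22 (SE) and by -0.20 without SDHD-ESR replicate 1. The medians of both lists lie within 0.1 of that of all genes.

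Of 14 sustentacular and satellite genes 11 were lower, with a median of -0.43, of -0.37 after centring and of -0.40 without SDHD-ESR replicate 1. The median was 0.03 on slide 1 and -0.67 on slide 2, and -0.17 and -0.35 after centring. Of its 36 spots 11 lay within 0.01 of 0 on 4 or more arrays, and without them the median of 12 genes was -0.52. In this list 3 of 36 spots had an unadjusted p of 0.05 or less, all lower, against 2.8% of all probes in that direction. Vim (vimentin) gave 0.27, 0.33, -0.81 and -0.65 in SDHD-ESR and 0.87, 0.33, 0.51 and 0.42 in +/-, a difference of -0.75 ± 0.32 (SE, exact permutation p = 0.0286, the smallest that 4 against 4 can give), with -0.31 on slide 1 and -1.19 on slide 2. After centring, Vim differed by -0.69, with -0.51 on slide 1 and -0.87 on slide 2, and the groups overlapped. In the ratios as deposited, 2 of the 14 genes were lower without overlap, against 272 of all 19322 genes. Kcnj10, the inward rectifier potassium channel of satellite glia, was the other of these beside Vim, and it is named after its values were seen. It gave -0.97, 0.20, 0.11 and 0.26 in SDHD-ESR and 0.56, 1.19, 0.53 and 0.28 in +/-, a difference of -0.74 ± 0.35 (SE, exact permutation p = 0.0286), with -1.26 on slide 1 and -0.22 on slide 2. Its spot is in the shifted part, and without SDHD-ESR replicate 1 the difference was -0.45 and the groups still did not overlap as deposited. After centring, Kcnj10 differed by -0.68, with -1.47 on slide 1 and 0.10 on slide 2. The centred groups overlapped, with or without SDHD-ESR replicate 1. Sox9, a relative of Sox10, gave -0.45, -0.81, -0.83 and -0.98 in SDHD-ESR and -0.21, -0.23, 0.34 and -0.78 in +/- (difference -0.55 ± 0.25 SE, exact permutation p = 0.0571, and -0.65 without SDHD-ESR replicate 1). Connective tissue cells also make Vim and Sox9, and no spot of Vim, Kcnj10 or Sox9 passed the adjusted test in limma. Glul, the glutamine synthetase of satellite glia, differed by 0.06 ± 0.19 (SE) and by -0.02 without SDHD-ESR replicate 1.

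Of the partners of ERBB3 and SOX10, 6 of 10 were lower with a median of -0.08. Erbb4, a neuregulin receptor, differed by 0.73 ± 0.53 (SE) and Nrg4, a ligand of ERBB4 known from brown adipose tissue, by -1.35 ± 0.76 (SE). Without SDHD-ESR replicate 1 these were 0.64 and -1.56. The Erbb4 difference was 0.24 without +/- replicate 4, its lowest array (-2.68). Paralogs of the 8 genes were lower in 17 of 22 (median -0.38). Their median was 0.01 on slide 1 and -0.66 on slide 2, and -0.20 and -0.34 after centring. Fabp3, the heart-type fatty acid-binding protein, differed by -1.40 ± 0.50 (SE, exact permutation p = 0.0571) and by -1.44 without SDHD-ESR replicate 1. Its difference was -0.35 on slide 1 and -2.44 on slide 2, and its best spot had an adjusted p of 0.953 in limma.

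Among the lists of markers of other cell types, connective tissue, leukocyte and adipose genes had medians further below 0 than the glial genes (-0.25). All 13 connective tissue genes were lower (median -0.67, and -0.61 after centring), with -0.58 on slide 1 and -0.70 on slide 2 after centring. All 13 leukocyte genes were lower (median -0.56), as were all 14 adipose genes (median -1.15). The adipose median was 0.36 on slide 1 and -2.51 on slide 2. Of 13 endothelial genes 12 were lower, with a median of -0.26 close to that of the glial genes. After centring 10 of the 13 were lower (median -0.20). Of 10 neuronal genes 7 were lower (median -0.21). The chromaffin and cortex lists cannot be read in this way, because 16 of 24 chromaffin spots and 11 of 15 cortex spots lay within 0.01 of 0 on 4 or more arrays, against 2.74% of all probes and 0 of the 13 glial spots. With all spots the medians were -0.01 over 13 chromaffin genes and 0.11 over 11 cortex genes. Without those spots they were -0.25 over 6 chromaffin genes, of which 5 were lower, and 0.38 over 4 cortex genes. After centring, the glial median was -0.42 on slide 1 and 0.00 on slide 2. The part of these other cells in the glial values was not tested.

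**Figure D4:**
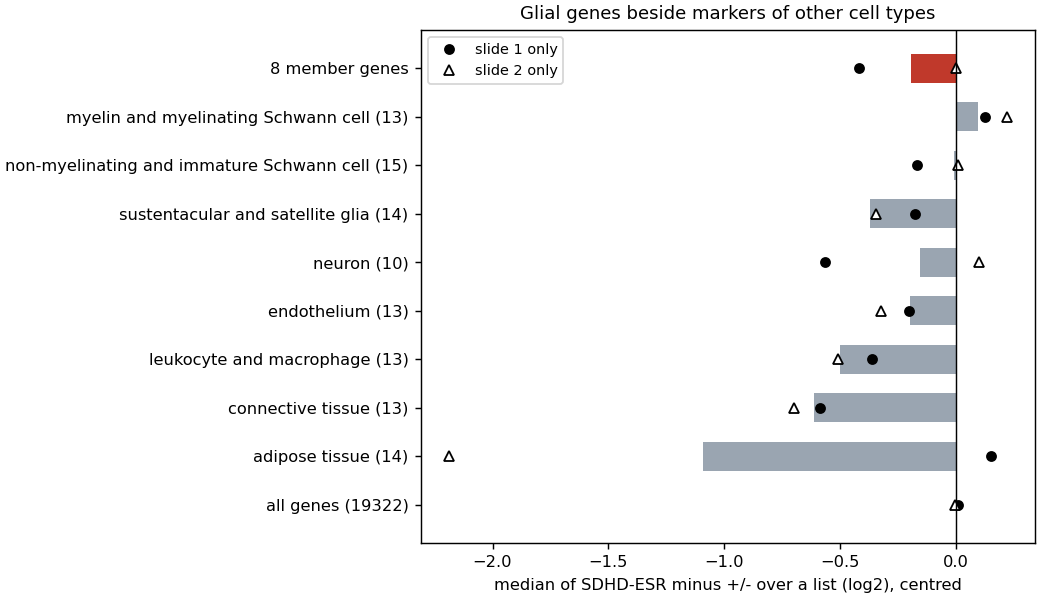
Median of SDHD-ESR minus +/- over the genes of each list, on the log2 scale after centring each array on its median (horizontal axis), with bars for all 8 arrays (red for the 8 glial genes), filled circles for slide 1 and open triangles for slide 2, and the number of genes in brackets. The bar of the glial genes (-0.19) is shorter than those of connective tissue (-0.61) and adipose tissue (-1.09), and the adipose median is 0.15 on slide 1 and -2.19 on slide 2.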

How the data were processed

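The deposited values are the authors' log2 ratios of the Cy5 and Cy3 signals, 1 for each of 45220 spots on 8 arrays, mixed with other values: whole numbers of up to 65142 in size (9.54% to 15.6% of the values on an array), taken as places without a ratio and left out. Background correction and dye normalization are not given in the sources at hand. Base 2 follows from the values, and each sign was turned. Gene names were placed through the geometry of the grid, and 12194 unnamed spots were not used.

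Probes needed at least 3 values in each group, which set aside 4953. Group means were fitted over 28073 probes in limma 3.58.1 (lmFit and eBayes, R 4.3.3), with Benjamini-Hochberg adjustment over all of them, and the script was tested on simulated data. Gene values are medians over spots, with exact two-sided permutation tests (scipy 1.17.1). Each array holds separate mice. Replicates 1 to 4 carry the same numbers in both groups. Same-numbered arrays deviated together by r of 0.00 to 0.08, against -0.114 to 0.035 for arrays of different number. These values are small, so the main tests were not paired, and a replicate block was run as an alternative. The number of arrays limits the precision.

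The 8 genes, the gene lists and the tests were chosen with earlier results of these data known. Named are every member, Sdhd, of each other list those with the smallest unadjusted p (at most 2 lower and 2 higher), of which not all appear, and the 5 genes most like the members. Alternatives were centring, quantile normalization, moving back the shifted lines, whole numbers from -2 to 2 kept, complete probes only, slide and replicate blocks, gene means, means over spots, the methods' t-test and leaving out each array. Aligned lines only, leaving out dim spots or spots near 0, and the centred list medians were added after seeing the data. Dim means that the ratio equals that of 2 whole numbers whose product is under 10000.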

Additional observations from a re-analysis of the deposited data

Results flagged for a closer look

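One value stood apart from the others of its group, by the ratio of its gap to the range of 4 arrays. In +/-, Sox10 was 0.40 on replicate 3, against 0.53 to 0.54 on the other arrays, a gap of 0.927 of the range. Of 18 groups looked at 1 was past Dixon's limit, and chance flags about 1 in 20 groups. In these uncentred ratios the +/- spread of Sox10 was small (SD 0.07), so the gap itself is small. After centring, the +/- values of Sox10 were further apart.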

How the results depend on the processing

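Between SDHD-ESR and +/-, limma called 0 probes (1294 at an unadjusted p of 0.05), and 1 after centring. The methods' t-test called 0 (1059 unadjusted), and leaving out any 1 array 0. The replicate block called 0 (1361 unadjusted), and under it Fabp7 had a limma p of 0.0396, adjusted to 0.944. For SDHD-ESR against the pool, 12 probes passed (10 higher, 2 lower), against 232 after centring (149 higher, 83 lower), 485 after quantile normalization (386 and 99), 69 with the shifted lines moved back, 25 on aligned lines only, 6 by gene means, 1 by the methods' t-test and 0 to 2 without any 1 array. For +/- against the pool, 0 passed, against 833 after quantile normalization, 1 on aligned lines only and 0 to 1 without any 1 array. The cause of these changes was not tested. Unadjusted calls between genotypes were 507 higher and 787 lower, against 875 and 795 after centring and 917 and 927 after quantile normalization.

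The median over the 8 genes was -0.25, between -0.36 and -0.08 without any 1 array, and -0.58 over the 4 genes left without dim spots. S100b, Sox10, Gfap and Fabp7 stayed below 0 in every alternative run. Reversed were Pmp22 after centring (0.0066), quantile normalization (0.030) and moving back (0.018), Mbp after moving back (-0.079) and by means over spots (-0.059). Within slides the sign differed for Cdh19 (-0.53 and 0.76), Mbp (0.25 and -0.089) and Pmp22 (0.013 and -0.12). Without any 1 array, Pmp22 ran between -0.16 and 0.076, Mbp between -0.26 and 0.17, Cdh19 between -0.23 and 0.89 and Erbb3 between -0.49 and 0.020.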
